A study of Mus musculus domesticus and Mus musculus molossinus with 8 samples.

Results

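Casp6, Casp9, Apaf1, Xiap, Birc2, Birc3, Diablo and Endog are 8 genes of the machinery that carries out apoptosis or holds it back, out of 23284 genes in the deposited tables. They were taken by symbol and not by a cut-off on their levels, although earlier results of these data were known at the time. All 8 were found in both tables. Of the caspases among them only Casp6 is an executioner caspase, since Casp9 is the initiator that the apoptosome activates. Liver and thymus were taken from each of 4 mice aged 8 weeks, and the polyadenylated RNA of both tissues of an animal was sequenced. The groups were 1 untreated mouse of the laboratory strain C57BL/6 (B6), 1 untreated mouse of the wild-derived Japanese strain MSM/Ms (MSM), and 1 mouse of each strain injected intraperitoneally with 1.5 µg of MegaFasL. MegaFasL is a multimeric soluble form of Fas ligand, the protein that engages the death receptor Fas. This gave 8 libraries in 8 groups of 1, and no combination of strain, treatment and tissue was repeated in a second mouse. The sex of the mice and the time between injection and collection are not given in the sources used here.

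In the intrinsic pathway of apoptosis, cytochrome c leaves the mitochondria and binds APAF1, which assembles into the apoptosome and activates caspase-9. Caspase-9 then activates the executioner caspases that cleave cell proteins, while inhibitor of apoptosis proteins (IAPs) such as XIAP bind and block caspases, and SMAC (the product of Diablo) is released from mitochondria to displace them. Hepatocytes are known as cells in which Fas must recruit this mitochondrial arm to kill and in which XIAP sets that need, whereas thymocytes can die after Fas engagement without it.

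Birc2 and Birc3, which encode the IAPs cIAP1 and cIAP2, are neighbours on the same strand and share sequence, so their levels may not be fully separate. The longest run that the reference transcripts of both genes share exactly is 114 nucleotides long and lies in coding sequence, in exon 5 of Birc2 at chr9:7821098-7821211 and in exon 6 of Birc3 at chr9:7854491-7854604, minus strand, mm10 (GENCODE M21 annotation, counted from 1). It is shown once, 5′ to 3′, because a read that falls wholly within it cannot be assigned to 1 of the genes.
Birc2 and Birc3: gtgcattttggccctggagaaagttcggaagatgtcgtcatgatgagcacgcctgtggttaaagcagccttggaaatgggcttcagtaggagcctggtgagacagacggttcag
Of all runs of 50 nucleotides, 2.07% of those of Birc2 and 11.42% of those of Birc3 also occurred in a transcript of another gene, and the largest share of those of Birc3 occurred in the predicted gene Gm7019. How the authors' counting treated such reads is not given in the sources used here, and the levels of both genes are uncertain to that extent.

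The other members lie apart from each other. Casp6 is at chr3:129901425-129914103 (plus strand), Casp9 at chr4:141793612-141815976 (plus), Apaf1 at chr10:90989311-91082770 (minus), Xiap at chrX:42059679-42109656 (plus), Diablo at chr5:123509765-123524176 (minus) and Endog at chr2:30171493-30174069 (plus). Exons of Endog overlap those of the antisense gene Spout1 by 379 nucleotides. Spout1 is listed under its older symbol D2Wsu81e at 5.85 to 11.5 FPKM (fragments scaled by transcript length and by the number of mapped fragments), and the library kit does not mark strand, so reads from the overlap cannot be told apart. For Diablo, 80.48% of runs of 50 nucleotides also occur in other transcripts, most of them in the readthrough gene Gm49027, for which no row was used here. The antisense neighbours of Casp9, Cela2a and Ctrc, share 94 nucleotides with it and were listed at 0 in all 8 libraries.

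**Figure D1:**
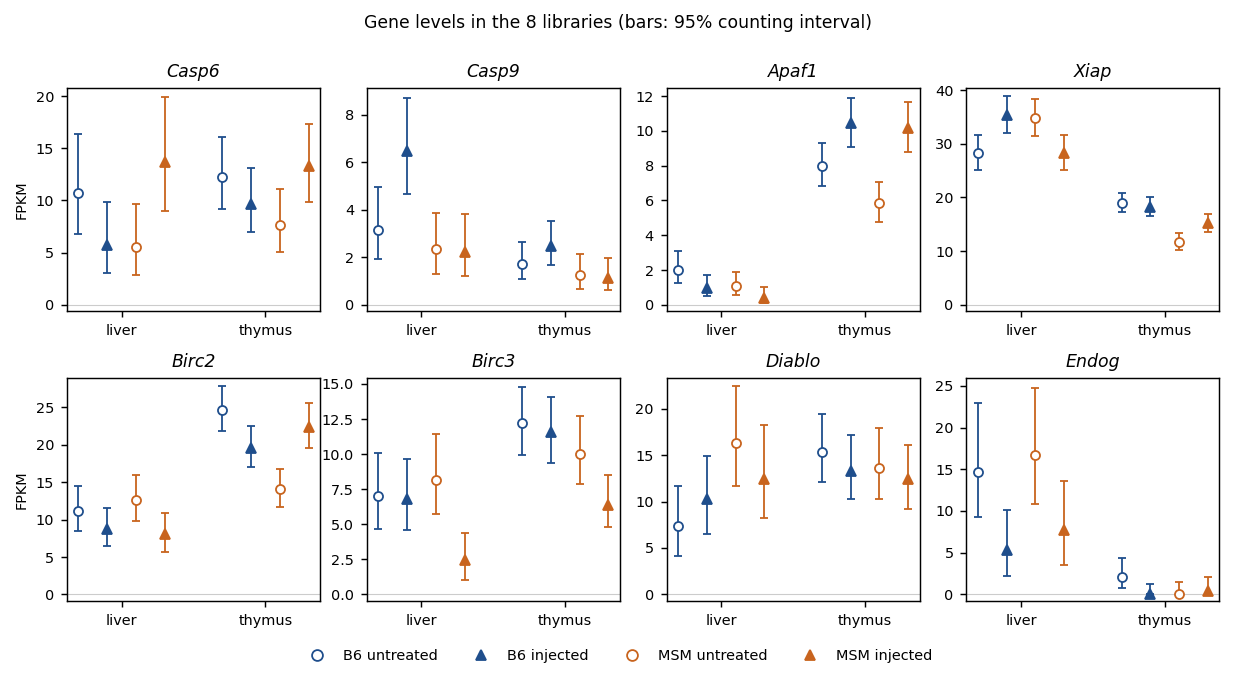
FPKM of each gene on a linear axis from 0, in each of the 8 libraries, grouped by tissue. Blue is B6 and orange is MSM, open circles are untreated and triangles injected mice, and bars are 95% counting intervals from estimated fragments. Apaf1, Xiap, Birc2 and Endog show no overlap between the points of the tissues, and Endog is listed at 0 in 2 thymus libraries.

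The deposited tables hold no counts, so depth was estimated from the step between low FPKM values. One FPKM on 1 kb of transcript stood for 2.818 to 3.43 fragments in the thymus libraries and 1.57 to 1.797 in the liver libraries. The 64 member values then rested on 0 to 422 estimated fragments with a median of 39, and 18 of them rested on fewer than 20. The authors' own interval reached down to 0 for all 64, as it did for all but 4 of the 186272 deposited values. Intervals quoted below are 95% intervals from these estimated fragments (exact Poisson for a level, exact conditional binomial for a ratio of 2 libraries), and cover counting error only. Hepatocyte markers led by Alb and thymocyte markers such as Rag1 marked each tissue as labelled, with 1 thymus that stood apart. Cd1d1 of the thymocyte list ran the other way, at 32.4 to 163.9 FPKM in the livers and 1.96 to 12.3 in the thymi. In the MSM untreated thymus the 16 hepatocyte markers summed to 3623 FPKM, against 52.2 to 247.6 in the other thymi, airway markers to 1145 against 1.1 to 7.0, fat and muscle markers to 433.8 against 34.1 to 39.0, and thymocyte markers to 1810 against 2693 to 2746. The hepatocyte markers there stood at a median of 3.134% of their level in the liver of the same mouse. In the livers, macrophage and Kupffer cell markers summed to 497.1 and 241.5 FPKM in B6 against 92.4 and 94.9 in MSM, and endothelial and stellate cell markers to 247.0 and 177.1 against 157.5 and 117.1. The endothelial and stellate list did not move as a whole. Dcn was its highest gene (105.4 and 61.7 against 63.6 and 49.1), while Lyve1, Reln and Col1a1 were higher in MSM in both pairs. The part of these admixtures in the levels below was not tested beyond the values given beside them. In bulk tissue, fewer cells of a type and less RNA per cell cannot be told apart.

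Casp6 encodes caspase-6, an executioner caspase known for cleaving nuclear lamins. Its level was 12.3 FPKM in the thymus of the B6 untreated mouse, 7.63 in the MSM untreated, 9.70 in the B6 injected and 13.3 in the MSM injected mouse. In the livers of the same mice it was 10.7, 5.53, 5.77 and 13.7 FPKM. The ranges of the tissues overlapped, and in both tissues the MSM injected mouse was highest and the MSM untreated mouse lowest. The estimated fragments behind the liver values were 22, 12, 13 and 27, so the MSM injected liver, with an interval of 9.02 to 19.9 FPKM, stood beside 2.86 to 9.65 in the MSM untreated liver. Liver was lower than thymus in 3 of 4 mice, and the mean difference on the log2(FPKM + 1) scale was -0.30 ± 0.19 (SE, limma adjusted p = 0.2115), which did not pass the threshold of 0.05.

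Casp9 encodes the initiator caspase of the apoptosome. Thymus levels were 1.73, 1.25, 2.49 and 1.13 FPKM in the untreated B6 and MSM mice and then the injected B6 and MSM mice, an order kept for every set of 4 values below. Liver levels were 3.13, 2.35, 6.47 and 2.24 FPKM. The B6 injected mouse was highest in both tissues, and its liver stood well above the other 3 livers, which lay within 2.24 to 3.13 FPKM. Each liver exceeded the thymus of the same mouse, by 0.60, 0.58, 1.10 and 0.61 log2 units, although the ranges of the tissues overlapped because the B6 injected thymus reached the level of the lower livers. The mean liver minus thymus difference was 0.72 ± 0.22 (SE, limma adjusted p = 0.02764, higher in 4 of 4 mice). That call was lost when any 1 mouse was left out, with adjusted p between 0.05723 and 0.1205 (limma).

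Apaf1, the scaffold of the apoptosome, showed the opposite tissue pattern. In thymus its level was 8.01, 5.85, 10.4 and 10.1 FPKM, resting on 105 to 224 estimated fragments. In liver it was 2.01, 1.10, 0.968 and 0.403 FPKM, on 21, 12, 11 and 4 fragments. No liver came near the lowest thymus, and the MSM injected liver had an interval of 0.109 to 1.02 FPKM. Liver was lower in 4 of 4 mice, with differences of -1.58, -1.71, -2.54 and -2.99 log2 units and a mean of -2.20 ± 0.30 (SE, limma adjusted p = 0.001317). The call held without each mouse in turn. Thymus RNA estimated in the B6 untreated liver from thymocyte markers (1.685%) would bring 0.135 of its 2.01 FPKM, and the other livers stood at 0.257% to 0.441% by the same markers. Set against Casp9, the FPKM ratio of Casp9 to Apaf1 was 1.56 to 6.68 in the livers and 0.11 to 0.24 in the thymi, so the caspase was the higher of the pair in every liver and the scaffold in every thymus.

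**Figure D2:**
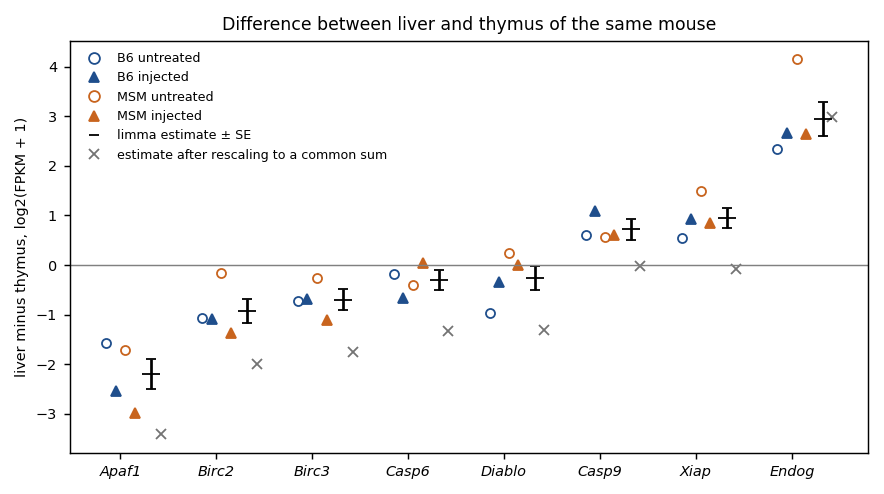
Liver minus thymus difference of log2(FPKM + 1) for each gene, ordered by its mean, with 1 point per mouse, the limma estimate with its SE as a black bar, and a grey cross for the estimate after rescaling to a common sum. Endog, Xiap and Casp9 lie above 0 in all 4 mice and Apaf1, Birc2 and Birc3 below 0 in all 4, while the crosses of Xiap and Casp9 lie at about 0.

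Xiap encodes the IAP that directly inhibits active caspase-9 and executioner caspases other than caspase-6. It was measured on the most fragments of the 8 genes, 214 to 422 per library. Levels in thymus were 19.0, 11.7, 18.2 and 15.2 FPKM. In liver they were 28.2, 34.8, 35.4 and 28.2 FPKM, which made Xiap the highest member in every liver and left no overlap with the other tissue. Its liver range was narrow, with the highest liver 1.25 times the lowest. The liver minus thymus difference was 0.95 ± 0.20 (SE, limma adjusted p = 0.007955, higher in 4 of 4 mice), and it passed without each mouse in turn. The MSM untreated thymus was the lowest thymus, and of its 11.7 FPKM the estimated liver RNA would account for 1.09. Without that mouse the difference was 0.77 (limma adjusted p = 0.0173).

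Birc2 encodes cIAP1, a ubiquitin ligase of the TNF receptor and NF-κB pathways. Its thymus levels were 24.7, 14.1, 19.6 and 22.4 FPKM, the highest member in every thymus. Its liver levels were 11.2, 12.6, 8.70 and 8.01 FPKM, all below the lowest thymus. The MSM untreated mouse had the smallest gap between its tissues, -0.15 log2 units against -1.08 to -1.38 in the other 3 mice. Liver was lower in 4 of 4 mice, by a mean of -0.92 ± 0.24 (SE, limma adjusted p = 0.01727). Leaving out a mouse other than the MSM untreated one raised the adjusted p to 0.06241 to 0.06727, and without the MSM untreated mouse the difference was -1.18 (limma adjusted p = 0.004493).

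Birc3 encodes cIAP2, the close relative of cIAP1 that NF-κB is known to induce. In thymus it stood at 12.2, 10.04, 11.6 and 6.39 FPKM. In liver it stood at 7.00, 8.19, 6.82 and 2.44 FPKM. The MSM injected mouse was lowest in both tissues, with 9 estimated fragments in its liver, and the ranges of the tissues overlapped only through its thymus. The ratio of Birc2 to Birc3 was 3.5 in the thymus and 3.29 in the liver of that mouse, against 1.28 to 2.02 in the other 6 libraries. Liver was lower in 4 of 4 mice, by a mean of -0.70 ± 0.20 (SE, limma adjusted p = 0.02612). This call was lost without the B6 untreated, the B6 injected or the MSM injected mouse, with limma adjusted p of 0.07853 to 0.08196, and without the mouse block (0.1003).

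Together the 3 IAP genes came to 38.7 to 55.5 FPKM in liver and 35.9 to 55.9 in thymus, which overlap, while their make-up differed by tissue. Xiap made up 60.8% to 73.0% of that sum in the livers and 32.7% to 36.9% in the thymi. Birc2 made up 17.1% to 24.1% in the livers and 39.3% to 50.9% in the thymi. These shares are ratios within a library, which no scaling of the library changes.

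Diablo encodes SMAC, the mitochondrial protein that relieves IAP inhibition. Thymus levels were close to each other at 15.4, 13.7, 13.3 and 12.4 FPKM, on 52 to 73 estimated fragments. Liver levels spread more, at 7.36, 16.3, 10.2 and 12.4 FPKM. The B6 untreated liver was lowest and the MSM untreated liver highest, a ratio of MSM to B6 of 2.22 (counting interval 1.25 to 4.38). Liver was higher in 2 of 4 mice, and the mean difference of -0.27 ± 0.24 (SE, limma adjusted p = 0.363) did not pass. The summed IAP level was 3.11 to 6.3 times that of Diablo in the livers and 2.63 to 3.71 times in the thymi, with overlap.

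Endog encodes endonuclease G, a mitochondrial nuclease reported to degrade DNA after its release into the nucleus. It was listed at 2.10, 0, 0 and 0.387 FPKM in the thymi, which is 6, 0, 0 and 1 estimated fragments. By its counting interval, a count of 0 allows up to 1.52 FPKM in the MSM untreated and 1.27 in the B6 injected thymus. In the livers it stood at 14.7, 16.7, 5.36 and 7.67 FPKM, on 21, 25, 8 and 10 fragments. Every liver was above every thymus, and both injected livers were below both untreated livers. The liver minus thymus difference was 2.95 ± 0.34 (SE, limma adjusted p = 0.0006894, higher in 4 of 4 mice). Its size depends on the value added before the log, from 1.47 with 5 added to 4.98 with 0.1 added, and it is not a fold change. The estimated liver RNA in the MSM untreated thymus would bring 0.524 FPKM of Endog there, below the limit that its count of 0 allows.

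Liver and thymus differed for 6 of the 8 members (limma, 8 libraries with mouse as a block, adjusted over all genes), 3 higher and 3 lower in liver. Over all 12880 genes tested, 60.7% differed, 28.6% higher and 32.1% lower, so the members' share is close to that of genes at large. The median difference was -0.28 over the members and -0.13 over all genes. Liver libraries hold a few very abundant transcripts, and rescaling each library to a common sum (TPM) moved the median of all genes to -1.05. On that scale Xiap was at -0.07 and Casp9 at -0.02, neither past the threshold (limma adjusted p = 0.7545 and 0.9419). Casp6 and Diablo then passed as lower in liver, at -1.34 and -1.31 (limma adjusted p = 0.001507 and 0.003442). Relative to the median of all genes, Xiap stood 1.08 above it as deposited and 0.97 above it as TPM, Casp9 0.85 and 1.02 above, and Endog 3.08 and 4.03 above. Apaf1 stood -2.08 and -2.36 from the median on these 2 scales, Birc2 -0.79 and -0.94, and Birc3 -0.57 and -0.70. The order of the members by level also differed between tissues. In liver, only Xiap (median 31.5 FPKM) and the next gene Diablo (11.3), and Casp9 (2.74) and the last gene Apaf1 (1.03), were neighbours whose ranges did not overlap. In thymus this was so only for Apaf1 (9.08) and Casp9 (1.49), with Birc2 (21.0) first and Endog (0.194) last.

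Whether the strains differed was asked within each tissue, on 4 libraries with treatment as a block and 1 residual degree of freedom. In liver 0 of 8 members passed (limma), where 1.47% of 10971 genes did, and 0 members had an unadjusted p under 0.05, where 16.2% of genes did. In thymus 0 of the 7 members tested passed, where 0.973% of 11610 genes did, and 0 had an unadjusted p under 0.05, where 13% did. Endog was under the level filter in thymus and was not tested there. In liver, Diablo was higher in MSM in both pairs, by 1.05 and 0.26 log2 units, with a mean of 0.65 ± 0.31 (SE, limma adjusted p = 0.3931). Casp9 was lower in MSM in both liver pairs, at -0.30 and -1.21, with a mean of -0.76 ± 0.39 (limma adjusted p = 0.4279), which was -0.35 without the B6 injected liver and -1.16 without the B6 untreated liver. In the injected pair the MSM to B6 ratio of Casp9 was 0.346 (counting interval 0.171 to 0.656) in liver and 0.454 (0.221 to 0.904) in thymus. In the untreated pair it was 0.75 (0.35 to 1.538) in liver and 0.721 (0.333 to 1.492) in thymus, and both of these intervals include 1. Xiap and Birc3 were lower in MSM in both thymus pairs, with means of -0.45 ± 0.24 and -0.51 ± 0.26 (limma adjusted p = 0.4917 and 0.4671). The Birc3 value was -0.20 without the MSM injected thymus and -0.84 without the MSM untreated thymus. The direction for Casp6 turned between treatments in both tissues, -0.84 and 1.12 in liver and -0.62 and 0.42 in thymus. Leaving out the MSM untreated thymus, the library with the admixed tissue, turned the thymus mean of Casp6 from -0.10 to 0.23. The same fit turned that of Apaf1 from -0.22 to 0.10. Casp6 also turned, to 0.055, without the B6 untreated thymus. With estimated liver RNA subtracted from the MSM untreated thymus, Casp6 was at -0.115 and Apaf1 at -0.22. Fits without 1 library had no treatment block, so strain and treatment are not kept apart in them. MSM reads were aligned to a reference built from C57BL/6, which can lower the level of divergent MSM genes, and its part here was not tested.

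**Figure D3:**
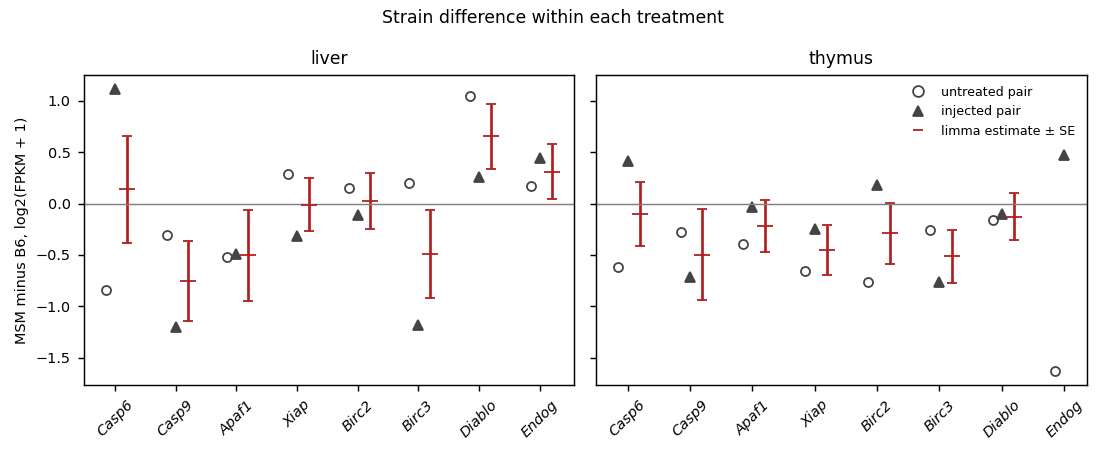
MSM minus B6 difference of log2(FPKM + 1) for each gene in liver and thymus, with an open circle for the untreated pair, a triangle for the injected pair and a red bar for the limma estimate with its SE. No gene passed the threshold, the points of Casp6 lie on opposite sides of 0 in both tissues, and Endog in thymus has points only because it was not tested.

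The change between untreated and injected mice was described without a test, because treatment coincides with the separately normalized table and each group is 1 library. Differences were taken after centring libraries of a tissue by their median ratio. In liver, Endog was the only member at least 2-fold apart in the same direction in both strains, at -1.36 in B6 and -1.06 in MSM. Over all 10971 genes, 2.88% were 2-fold apart the same way and 1.24% were so in the lower direction. In FPKM, the injected to untreated ratio of Endog was 0.365 (counting interval 0.132 to 0.808) in B6 and 0.459 (0.189 to 0.95) in MSM. With 5 added before the log no member reached this limit, and with 0.1 added Apaf1 joined it. Apaf1 was lower in both injected livers, at -0.65 in B6 and -0.59 in MSM, with counting intervals of the FPKM ratio (0.206 to 1.03 and 0.086 to 1.21) that both include 1. In thymus, where Endog was not counted, 0 of 7 members were 2-fold apart in both strains, against 0.698% of genes.

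Each strain was also counted alone in liver. In B6, 0 of 8 members were at least 2-fold higher (6.49% of all genes) and 1 was lower (6.19%), Endog. In MSM, 1 was higher (6.75%), Casp6 at 1.14, and 2 were lower (7.03%), Endog and Birc3, the latter at -1.44. Birc3 in the MSM liver had an injected to untreated FPKM ratio of 0.298 (counting interval 0.12 to 0.601), and in B6 liver its difference was -0.09. The MSM thymus showed Birc3 at -0.65, with a ratio of 0.637 (0.436 to 0.937). The MSM injected liver was the lowest liver for Apaf1, Birc2, Birc3 and Casp9. The share of all genes lowest in that library was not computed. Casp9 there was close to the MSM untreated liver (2.24 against 2.35 FPKM), and Birc2 to the B6 injected liver (8.01 against 8.70). The MSM untreated liver was the highest liver for Birc2, Birc3, Diablo and Endog.

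Differences for Casp6 were of opposite sign in the 2 strains, in both tissues. Its liver differences were -0.84 in B6 and 1.14 in MSM, and its thymus differences -0.35 and 0.66. In FPKM the injected to untreated ratio was 0.539 (counting interval 0.247 to 1.11) in B6 liver and 2.48 (1.21 to 5.37) in MSM liver. In thymus it was 0.791 (0.51 to 1.21) and 1.75 (1.07 to 2.87). Both intervals of MSM lie above 1 and both of B6 include it. Casp9 showed the reverse arrangement, with 0.80 in B6 and -0.07 in MSM liver, and 0.33 and -0.12 in thymus, and the interval of its ratio lay above 1 only in B6 liver (2.07, 1.17 to 3.71). The Casp6 to Casp9 ratio was 0.89 in the B6 injected liver and 6.12 in the MSM injected liver. Opposite signs in the strains were common in the data. In liver they were found for 4 of 8 members (Casp6, Casp9, Xiap and Diablo) and 41.5% of genes. In thymus they were found for 4 of 7 members (Casp6, Casp9, Xiap and Birc2) and 50.3% of genes. The share of genes with opposite signs in both tissues was not computed. The changes were at least 1 log2 unit apart in liver for 2 of 8 members, Casp6 and Birc3, and for 20.3% of genes. The MSM thymus values of Casp6, Apaf1, Xiap and Birc2 all rest on the MSM untreated thymus, which held the admixed tissue and was the lowest thymus for these 4 genes.

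**Figure D4:**
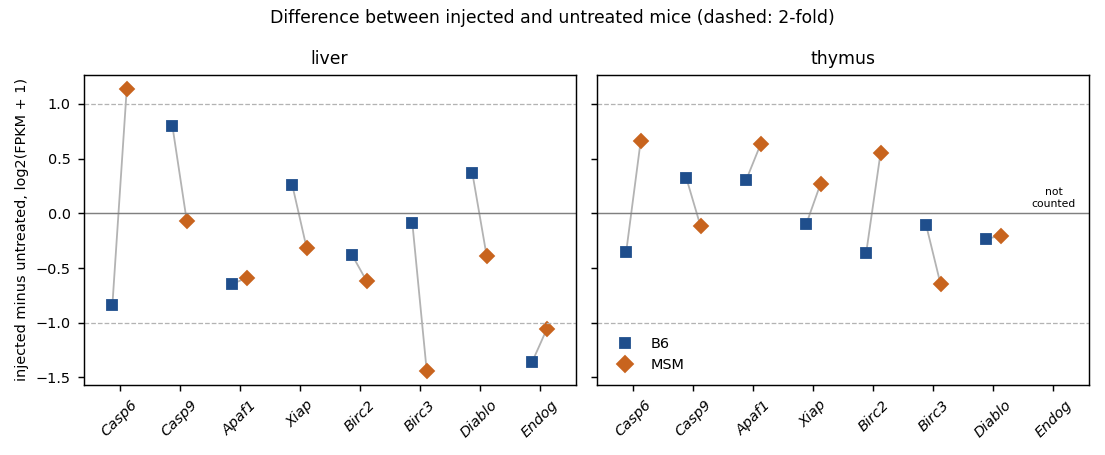
Injected minus untreated difference of log2(FPKM + 1), after median ratio centring within tissue, for each gene in B6 (squares) and MSM (diamonds), with dashed lines at 2-fold. Each point is 1 library against 1 library, Endog in liver is the only gene past 2-fold the same way in both strains, and Endog was not counted in thymus.

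Treatment could be tested only on the liver minus thymus difference within each mouse, in which the scale of a table cancels. For low genes it cancels only in part, because 1 is added before the log. No member passed (limma, 4 mice, 0 of 8), where 0.0388% of 12880 genes did. Apaf1 was the only member with an unadjusted p under 0.05, against 7.56% of genes. Its gap between tissues was wider in the injected mice by -1.12 ± 0.41 (SE, limma unadjusted p = 0.03912, adjusted p = 0.6464). Apaf1 is low in liver, and under other choices of processing this value ran from -1.699 to -0.568. In levels, both injected thymi were above both untreated thymi for Apaf1 and both injected livers were below both untreated livers. The corresponding test of the strain difference of that gap passed for 0 of 8 members, where 0.365% of genes passed, and 0 members had an unadjusted p under 0.05, where 12.6% of genes did. Its widest member values were 0.89 ± 0.57 for Endog and 0.78 ± 0.40 for Diablo (SE, limma adjusted p = 0.587 and 0.4969).

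Other genes of the pathway were taken as 5 lists of 42 genes, of which 38 were matched by symbol. Between tissues, 33 could be tested, and 6 were higher and 20 lower in liver, with a median difference of -0.82 against -0.13 over all genes. Of all genes tested, 28.6% were higher and 32.1% lower. As TPM the counts were 3 higher and 25 lower of 34, where 14.4% of all genes were higher and 53.8% lower. Of the other apoptotic caspases, Casp2 and the death receptor initiator Casp8 were lower in liver at -2.94 and -0.82. Among other BIR-domain genes, the relatives of the IAPs, 3 of 8 could be tested, and 2 were lower in liver, the mitotic gene Birc5 at -4.93 and Birc6 at -0.77. Mitochondrial death factors were higher for 3 of 6, Aifm1 at 2.54, Aifm2 at 2.38 and cytochrome c (Cycs) at 1.36, and lower for Exog, the paralogue of Endog, at -2.02. Cycs was not called as TPM (0.32). Caspase substrates and DNA fragmentation genes were lower for 8 of 11, led by the lamin gene Lmnb1 at -3.76 and gelsolin (Gsn) at -2.45, and higher for Lmna (lamin A/C) at 2.08 and Bcap31 at 1.04. Bcap31 was at -0.02 as TPM. Partners and regulators of IAPs were lower for 7 of 9, led by Traf1 at -2.98 and Tnfaip3 at -2.70, both NF-κB target genes, and Traf2, to which cIAPs bind, at -1.59.

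**Figure D5:**
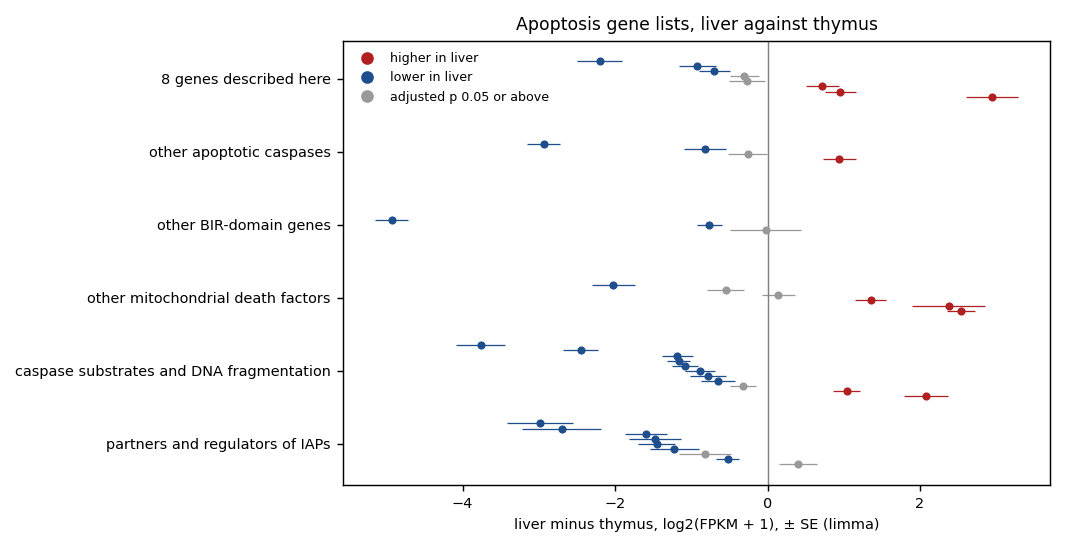
Liver minus thymus difference of log2(FPKM + 1) with its SE from limma for the 8 genes and for the genes of 5 other apoptosis lists that could be tested, with 1 point per gene. Red and blue points passed as higher and lower in liver and grey points did not pass. The partners and regulators of IAPs hold 7 genes that passed, all below 0.

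Between strains, 0 of 29 listed genes passed in liver and 0 of 33 in thymus (limma). At an unadjusted p under 0.05 there were 5 of 29 in liver, where 16.2% of all genes were, and 6 of 33 in thymus, where 13% were. Naip2 (-1.61) and Casp8 (-1.45) differed most among these in liver, and Traf1 (1.60, limma adjusted p = 0.05322) and Xaf1, an antagonist of XIAP (1.34), in thymus, and none of them passed. No gene of these lists was 2-fold apart the same way in both strains after injection, in either tissue.

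Correlations between members were taken over all 8 libraries, 4 of each tissue, so they include the difference between tissues and share libraries and depth. No correlation within a tissue was computed. Pearson's r of log2(FPKM + 1) was 0.93 for Apaf1 and Birc2, 0.89 for Xiap and Endog and 0.77 for Casp9 and Xiap, and -0.84 for Apaf1 and Endog and -0.83 for Apaf1 and Xiap. Among 7390 genes that averaged 5 FPKM or more, the patterns most like Apaf1 were those of Sp4 (0.993) and Topbp1 (0.992), and those most like Xiap were Slc35d1 (0.993) and Acn9 (0.979). Birc2 was followed most closely by Mapre1 and Abi1 (both 0.972) and Birc3 by Pecam1 (0.962) and Gas6 (0.954). For Endog the closest were Bola1 (0.981) and Mrpl15 (0.978), for Casp9 Tapbp (0.961) and Ndfip2 (0.943), and for Diablo Snrnp25 (0.936) and Aars2 (0.917). Casp6 was closest to Ddit3 (0.92) and Dennd4c (0.908). Ddit3, a transcription factor induced by cell stress, stood at 7.28 and 2.59 FPKM in the untreated B6 and MSM livers and 2.49 and 11.4 in the injected ones. Each gene named here was picked as the best of 7390 over 8 libraries, so a high r and a similar pattern follow from the choice. The r that the best of so many genes reaches by chance was not computed.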

How the data were processed

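TopHat, Cuffdiff 2.2.1 and the build mm10 are named in the submitters' processing notes. The authors deposited FPKM per gene with an interval in FPKM, 1 table for the untreated and 1 for the injected mice, each normalized separately, with status OK for all 186272 values. The annotation and run settings are not given in the sources used here.

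Levels were compared as log2(FPKM + 1), which understates differences of low genes. Only genes that averaged 1 FPKM or more were tested (in either tissue for liver minus thymus). Two-sided tests were made in R 4.3.3 with limma 3.58.1 and its mean trend, adjusted by Benjamini-Hochberg over all genes tested at a threshold of 0.05, and the code was tested on simulated data. Mouse was a block for liver minus thymus, since both tissues came from the same mouse; treatment was a block for strain. With 1 mouse of each kind, p-values measure how differences varied between treatments or strains, not among like mice. Fragments were estimated as FPKM times transcript length less 200 nucleotides times a scale per library, fitted on 2015 single-transcript genes over 1500 nucleotides, where 71.0% to 75.2% of values came out whole within 0.1 (20% by chance). Loci and shared sequence came from GENCODE M21.

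Members and gene lists were chosen with earlier results of these data known. All members are named, and some genes of the other lists are not reported here. Of other lists, genes past a threshold or 2-fold apart in both strains, or otherwise the 2 with the largest difference, could be named, and for each member the 2 best-correlated genes outside predicted and unnamed ones. Alternatives were the added value (0.1 or 5), the filter (none or 5 FPKM), scaling (TPM, median ratio or as deposited), subtraction of estimated admixed tissue, limma's moderation, the block, and leaving out each library or mouse.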

Additional observations from a re-analysis of the deposited data

Results flagged for a closer look

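For 2 members the injected minus untreated difference had opposite signs in the 2 strains, and did so in liver and in thymus. Casp6 differed by -0.842 in B6 liver and 1.14 in MSM liver, and by -0.349 in B6 thymus and 0.658 in MSM thymus (log2(FPKM + 1), median ratio centred). Casp9 differed by 0.801 in B6 liver and -0.069 in MSM liver, and by 0.326 in B6 thymus and -0.12 in MSM thymus. The counting interval of the Casp9 FPKM ratio included 1 in MSM liver (0.418 to 2.15), MSM thymus (0.391 to 2.144) and B6 thymus (0.804 to 2.598). It lay above 1 only in B6 liver, so the sign in MSM is not resolved for Casp9. For Casp6 the intervals lay above 1 in MSM and included 1 in B6, in both tissues. Each value is 1 library against 1 library, and the difference between the strains was not tested. In liver, 41.5% of all genes had opposite signs in the strains, and in thymus 50.3% did. The share of all genes with the same arrangement in both tissues was not computed. Both tissues came from the same mice, so the tissues are not independent of each other.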

How the results depend on the processing

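Each value here is that of the members under another choice of processing. The liver minus thymus count of 6 members was 3 to 5 when 1 mouse was left out, with fewer samples in each fit, and 4 without the mouse block. It was also 6 as TPM, but of other members, with 1 higher and 5 lower in liver (14.4% and 53.8% of all genes). As deposited, 3 were higher and 3 lower. As TPM, Xiap at -0.073 and Casp9 at -0.021 no longer passed, while Casp6 and Diablo passed as lower. The count of members 2-fold apart in both injected livers was 2 with 0.1 added and 0 with 5 added. No injected minus untreated difference of a member changed sign under its 6 or 7 alternatives. Strain and within-mouse counts were 0 under all 14 alternatives each. Other members that turned direction did so without passing the threshold, and the cause was not tested. For the liver strain difference as TPM, Casp6 was at -0.022 and Birc2 at -0.139. Leaving out each liver in turn gave -0.425 to 0.72 for Casp6, -0.275 to 0.343 for Birc2, -0.363 to 0.983 for Endog, -0.159 to 0.158 for Xiap and -1.201 to 0.238 for Birc3. Leaving out each thymus gave strain differences of -0.443 to 0.229 for Casp6 and -0.545 to 0.1 for Apaf1. The strain fits without 1 library were median ratio centred and had no treatment block, so strain and treatment are not kept apart in them. For the injected minus untreated change of the tissue gap, leaving out each mouse gave -0.369 to 0.331 for Casp6 (0.001 with median ratio centring), -0.409 to 0.798 for Diablo, -0.604 to 0.343 for Xiap and -1.49 to 0.317 for Endog. For the strain difference of that gap it gave -0.93 to 0.352 for Apaf1, -0.296 to 0.927 for Birc2 and -0.398 to 0.442 for Birc3, which was at -0.046 with 0.1 added and -0.065 as TPM.

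Counts over all genes moved more. In liver the strain test called 161 genes, and 0 without any 1 library (827 to 1231 at an unadjusted p under 0.05), 37 without mean trend and 336 as TPM. In thymus it called 113, and 0 to 59 without 1 library, 44 to 67 without mean trend, without a filter, without the treatment block, as TPM or with median ratio centring, and 184 to 300 with the 5 FPKM filter, robust moderation, 0.1 added or liver RNA subtracted. The 47 genes of the strain difference of the tissue gap became 0 to 132 and the 5 of the treatment difference 0 to 5. As TPM, 2084 of 9872 genes called between tissues were higher in liver, against 3687 of 7821 as deposited. Tissues were paired by animal, through the mouse block and the within-mouse gap. By replicate number no paired analysis was possible because each group is 1 sample. At these depths 18 of 64 member values rest on fewer than 20 fragments, among them 6 of Endog, 5 of Casp9, 3 of Apaf1 and 2 of Casp6.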
